A study of Arabidopsis thaliana with 4 samples.

Results

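The thalianol and marneral genes of Arabidopsis thaliana are 7 genes in 2 metabolic gene clusters on chromosome 5. They were taken by locus number: the thalianol genes AT5G48010 (THAS1), AT5G48000 (CYP708A2), AT5G47990 (CYP705A5) and AT5G47980, and the marneral genes AT5G42600 (MRN1), AT5G42590 (CYP71A16) and AT5G42580 (CYP705A12). All 7 were among the 20511 gene rows of the expression matrix. They were measured in single cells of the root tip of lbd_quad plants, which carry lbd6, lbd36, lbd12 and lbd15, and of WT plants. The plants of both genotypes were 7 days old when the tip was cut off with a needle, and cells were collected after 16 h of recovery. Each genotype had 2 droplet libraries of the 3′ ends of transcripts, so p-values measure the spread between these libraries, which may be technical.

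Plants make triterpenes by folding 2,3-oxidosqualene, the precursor they also use for sterols, with enzymes called oxidosqualene cyclases. In Arabidopsis, several of these cyclases lie next to the cytochrome P450 and acyltransferase genes that modify their products, and the thalianol and marneral clusters are the best known examples. Both pathways are known for expression in roots, and root triterpenes shape the bacteria that live on and around the root. The lbd genes belong to the LATERAL ORGAN BOUNDARIES DOMAIN family of transcription factors.

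The lbd_quad libraries held 846 cells (replicate 1) and 2876 cells (replicate 2), and the WT libraries held 1746 and 5061 cells. UMIs, the tags that count single molecules, totalled 7073293 to 21280667 per library. The median cell had 6364 UMIs in lbd_quad replicate 1, against 2090 to 2521.5 in the other 3 libraries. Only 9 of 10520 barcodes occurred in more than 1 library. LBD12 was the mutated gene with a lower level in both lbd_quad libraries, at 0.335 and 0.142 UMIs per 10000, against 2.55 and 1.27 in the WT libraries. The labels name the 4 loci but not the kind of allele, and a 3′ count need not fall in a mutant. Levels below are UMIs per 10000 UMIs of a cell, averaged over cells.

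The 2 cyclases, which make the scaffold of each pathway, were low when averaged over all cells. THAS1, thalianol synthase, had 0.247 and 0.367 UMIs per 10000 in the lbd_quad libraries and 0.408 and 0.183 in the WT libraries. Its groups overlapped, and lbd_quad over WT gave 0.09 on the log2 scale with a standard error (SE) of 0.34 (adjusted p = 0.976 by limma). MRN1, marneral synthase, had 6 and 20 UMIs in the lbd_quad libraries and 20 and 63 UMIs in the WT libraries. That is 0.0040 and 0.0192 per 10000 against 0.0147 and 0.0357 per 10000, under the mean of 0.1 needed to enter the fit.

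The P450s of the thalianol pathway likewise did not separate the genotypes. CYP708A2, thalianol hydroxylase, had 0.150 and 0.288 UMIs per 10000 in lbd_quad and 0.203 and 0.133 in WT (log2 fold change 0.23 ± 0.29 SE, adjusted p = 0.917). CYP705A5, the desaturase that acts on thalian-diol, had 0.724 and 0.719 in lbd_quad and 0.909 and 0.259 in WT. The WT libraries lay on both sides of the lbd_quad libraries. The log2 difference was 0.45 ± 0.46 SE (adjusted p = 0.891 by limma). AT5G47980, which encodes an acyltransferase of the HXXXD family, had 0.109 and 0.157 in lbd_quad and 0.0652 and 0.0255 in WT. Both lbd_quad libraries were above both WT libraries, but its mean lay under the filter and it was not tested.

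The P450s of the marneral cluster were lower in both lbd_quad libraries than in either WT library. CYP71A16, which oxidises marneral, had 0.364 and 0.592 UMIs per 10000 in lbd_quad and 1.14 and 0.929 in WT. CYP705A12, for which no reaction is given here, had 0.174 and 0.0989 in lbd_quad and 0.403 and 0.338 in WT. The log2 fold changes were -0.996 ± 0.298 SE for CYP71A16 and -1.01 ± 0.26 SE for CYP705A12. Neither passed the threshold of 0.05 (limma, adjusted p = 0.310 and 0.216, unadjusted p = 0.0111 and 0.0053). When cluster makeup was set to the mean over the clusters that each library held, CYP705A12 turned to 0.19 and CYP71A16 stayed at -0.94. The libraries could not be made fully alike. Clusters without a cell made up 9.03% and 1.11% of the mean makeup in lbd_quad and 3.42% and 0% in WT. Small groups of lbd_quad cells carry weight for CYP705A12. Cluster 21 of replicate 1 (3 cells) had 2.55 UMIs per 10000 and cluster 15 of replicate 2 (3 cells) had 11.9. Their part in the turn was not tested.

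None of the 5 members tested passed the adjusted threshold over all cells, where 36 of 9509 genes did, or 0.379%. At an unadjusted p under 0.05 the members' count was 2 of 5, beside 8.02% of all genes, and voom on summed UMIs called no member either. Non-overlapping libraries occurred in 17.8% of all genes tested with lbd_quad lower and in 19.1% with lbd_quad higher.

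**Figure D1:**
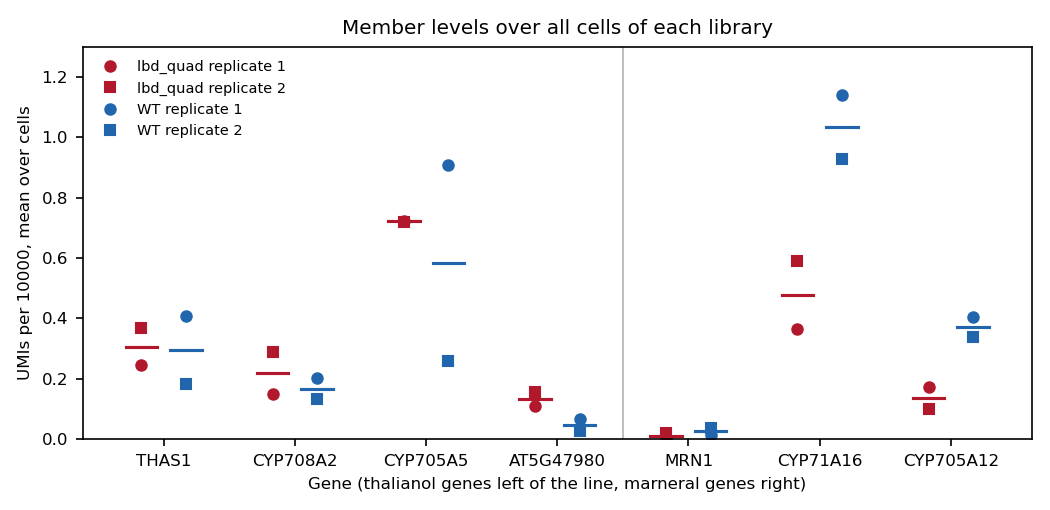
Levels of the 7 genes over all cells, in UMIs per 10000 (mean over cells). Points are single libraries, lbd_quad in red left of WT in blue, and bars are the means of 2 libraries. CYP71A16 and CYP705A12 sit lower in both lbd_quad libraries, AT5G47980 sits higher, and the other genes overlap or are near 0.

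Transcripts were spread unevenly over cells. In lbd_quad replicate 1, the 10 cells with the most THAS1 held 74.3% of its 187 UMIs, and in lbd_quad replicate 2 they held 37.2% of 323. The same share was 53.6% of 274 in WT replicate 1 and 40.2% of 251 in WT replicate 2. CYP71A16 was spread more widely: 10 cells held 32.5% and 15.3% of its UMIs in lbd_quad and 20.97% and 7.76% in WT. A single cell reached 58 UMIs of CYP705A5 in lbd_quad replicate 1 and 62 in WT replicate 1.

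Because depth per cell differed, the shares of cells with a UMI were compared after thinning every cell to 1000 UMIs, which leaves out 632 cells of lbd_quad replicate 2 and 1218 cells of WT replicate 2. Any thalianol UMI was then found in 4.73% and 5.79% of lbd_quad cells and in 8.36% and 4.16% of WT cells. Any marneral UMI was found in 3.90% and 5.21% of lbd_quad cells and in 11.9% and 9.63% of WT cells. The marneral shares did not overlap, with a difference of -6.18 percentage points, and the exact two-sided permutation test gave p = 0.3333, the smallest that 2 against 2 libraries allow. Without thinning, the marneral shares were 18.0% and 13.5% in lbd_quad and 23.4% and 17.5% in WT.

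Cells were grouped into 30 clusters without using the 7 genes, and 13 clusters carried enough markers of a known cell type to be named. The other 17 clusters, which hold 79.7% and 62.0% of the lbd_quad cells and 58.1% and 57.7% of the WT cells, are given by number. Cortex-like cells filled clusters 2 and 11, and root cap-like cells filled clusters 4 and 21. The root cap is the sheath of cells that covers the growing tip. In this class the summed level of the 12 xylem markers exceeded that of the 7 root cap markers, at 46.6 against 41.0 UMIs per 10000 in lbd_quad replicate 1, 115.8 against 47.7 in WT replicate 1 and 37.5 against 28.3 in WT replicate 2. Cluster 4 met the marker rule for the root cap genes BRN1, BRN2, BFN1 and PASPA3 and for the xylem gene MC9. The excess was not in cluster 21, where the xylem markers summed to 0.277 and 0.360 and the root cap markers to 14.9 and 8.50 in WT. Root cap-like cells were 0.709% and 0.139% of the lbd_quad libraries and 5.33% and 4.86% of the WT libraries. Cluster 28 met the rule for the same genes as cluster 4 but stayed unnamed. It made up 6.50% and 7.02% of the lbd_quad libraries and 0% and 0.138% of the WT libraries. The low root cap-like share in lbd_quad therefore depends on how cluster 28 is named.

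By the mean over libraries with at least 20 cells, thalianol transcripts were most abundant in cluster 17, an unnamed cluster with 36 and 187 lbd_quad cells and 47 and 194 WT cells. Its leading genes include XTH17, which remodels cell wall xyloglucan, and CER4, a reductase that makes fatty alcohols. The cortex marker PRX45 was the only marker that met the rule there, and of the root cap markers 5 or 6 of 7 were at 0 in each library. The 7 cortex markers still summed to 37.8 and 44.9 UMIs per 10000 in lbd_quad and 59.7 and 54.3 in WT. In cortex-like cluster 11 they summed to 42.35 and 38.6 in lbd_quad and 47.1 and 41.6 in WT. High sums of this list were not particular to cortex-like cells. In hair epidermis-like cells it reached 25.5 in lbd_quad replicate 2 and 32.0 and 37.7 in WT. In endodermis-like cells it ran from 14.7 to 29.3. The list with the next highest sum in cluster 17, non-hair epidermis, reached at most 3.81. THAS1 reached 1.82 and 3.38 UMIs per 10000 in lbd_quad cells of cluster 17 and 6.85 and 1.51 in WT cells. CYP705A5 reached 2.49 and 3.56 in lbd_quad and 7.59 and 1.44 in WT. This cluster held 27.8% and 43.3% of all THAS1 UMIs of the lbd_quad libraries and 46.4% and 40.6% of those of the WT libraries, in 4.26% and 6.50% of lbd_quad cells and 2.69% and 3.83% of WT cells. CYP705A5 was less concentrated there, with 17.3% and 23.9% of its UMIs in lbd_quad and 23.4% and 14.5% in WT. For the 4 thalianol genes together the shares were 25.6% and 32.4% in lbd_quad and 28.9% and 21.4% in WT. Cluster 1 held 29.0% of these UMIs in WT replicate 2, and cluster 25 held 26.9% in lbd_quad replicate 2. Cluster 17 did not lead in every library. In lbd_quad replicate 1, cluster 28 held 48.7% of the THAS1 UMIs, at 1.92 UMIs per 10000, and in lbd_quad replicate 2 it held 20.1%, at 0.420. The 4 thalianol genes together reached 7.45 UMIs per 10000 in cluster 28 and 6.87 in cluster 17 of lbd_quad replicate 1, and 4.54 in cluster 21 and 3.59 in cluster 17 of WT replicate 2.

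In WT, MRN1 transcripts were concentrated in cells with root cap markers. In lbd_quad only 3 and 7 cells had an MRN1 UMI. Cluster 21, whose markers include SMB, BRN1 and BRN2, transcription factors of root cap maturation, and the cellulase CEL5, held 4 of the 6 MRN1 UMIs of lbd_quad replicate 1. These 4 were in 1 cell. In lbd_quad replicate 2 cluster 21 held none of 20, of which cluster 28 held 16, in 3 cells. In WT cluster 21 held 13 of 20 and 33 of 63. Cluster 21 had 3 and 2 lbd_quad cells and 26 and 83 WT cells, so only the WT levels are described. There, MRN1 reached 0.489 and 0.834 UMIs per 10000, CYP705A12 reached 3.51 and 5.00, and CYP708A2 reached 2.89 and 2.01. These are the highest cluster levels of the 3 genes among clusters with at least 20 cells of a library, by the mean over such libraries.

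Genes of both pathways were detected in the WT cells of cluster 21. CYP705A12 had a UMI in 73.1% and 59.0% of the cells of cluster 21 in WT, and THAS1 had one in 34.6% and 16.9%. In cluster 28 the lbd_quad libraries had 55 and 202 cells and the WT libraries 0 and 7. That cluster met the marker rule for the root cap genes BRN1, BRN2, BFN1 and PASPA3 and for the xylem gene MC9, and it stayed unnamed because MC9 was among its leading 10 genes. Its xylem markers summed to 96.5 and 25.9 UMIs per 10000 in lbd_quad, above its root cap markers at 19.9 and 7.11. In lbd_quad cells of cluster 28, CYP705A5 had 4.51 and 0.912 UMIs per 10000, CYP71A16 had 1.35 and 1.23, and CYP705A12 had 1.86 and 0.270. The CYP705A5 and CYP705A12 values of replicate 1 were well above those of replicate 2.

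CYP71A16 was found in cortex-like cells and in several other clusters. Its highest cluster was the cortex-like cluster 2, with 1.49 and 2.26 UMIs per 10000 in lbd_quad and 3.95 and 5.17 in WT. Cluster 5, which is almost absent from lbd_quad (0 and 10 cells), had 2.60 and 3.06 in its 141 and 267 WT cells. Cluster 1, with 16 and 7 lbd_quad cells, had 1.14 and 2.32 in its 146 and 341 WT cells. Cluster 25, with 85 and 449 lbd_quad cells and 1 and 4 WT cells, had 0.584 and 0.994 in lbd_quad. Other members were present in these clusters too. In WT, CYP705A5 had 1.32 and 1.23 in cluster 1 and 3.06 and 0.848 in cluster 5. CYP705A12 had 0.477 and 1.47 in cluster 1 and 1.75 and 0.801 in cluster 5 in WT. In lbd_quad cells of cluster 25, CYP705A5 had 0.208 and 0.937. A cluster held almost wholly by the libraries of 1 genotype cannot be compared between genotypes.

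The vascular and endodermis-like cells had few transcripts of either pathway. In phloem-like cells (22 and 177 in lbd_quad, 40 and 261 in WT) all 4 thalianol genes together gave 0 and 2 UMIs in lbd_quad and 1 and 12 UMIs in WT. A thalianol UMI occurred in 0% and 1.13% of those lbd_quad cells and in 2.50% and 3.45% of those WT cells, at median depths of 10780 and 3192 UMIs in lbd_quad and 9020 and 2525 UMIs in WT. Shares at or under these are not read as expression. Whether they come from free RNA was not tested. The share was higher in cortex-like cells, at 14.5% and 13.7% in lbd_quad and 16.5% and 5.47% in WT, whose median depth was 7379 and 1902 UMIs in lbd_quad and 2330 and 1432 UMIs in WT. In endodermis-like cells THAS1 had 0 UMIs in the 46 and 203 lbd_quad cells and 3 and 7 UMIs in the 259 and 453 WT cells. A count of 0 there allows up to 0.0792 and 0.0245 UMIs per 10000 (3 UMIs of the total, counting error only). The WT levels were 0.0589 and 0.101, but these are means over cells and the limits are over summed UMIs. In cluster 7, most of the class, THAS1 over summed UMIs was 0.0287 and 0.0408 per 10000 in WT.

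**Figure D2:**
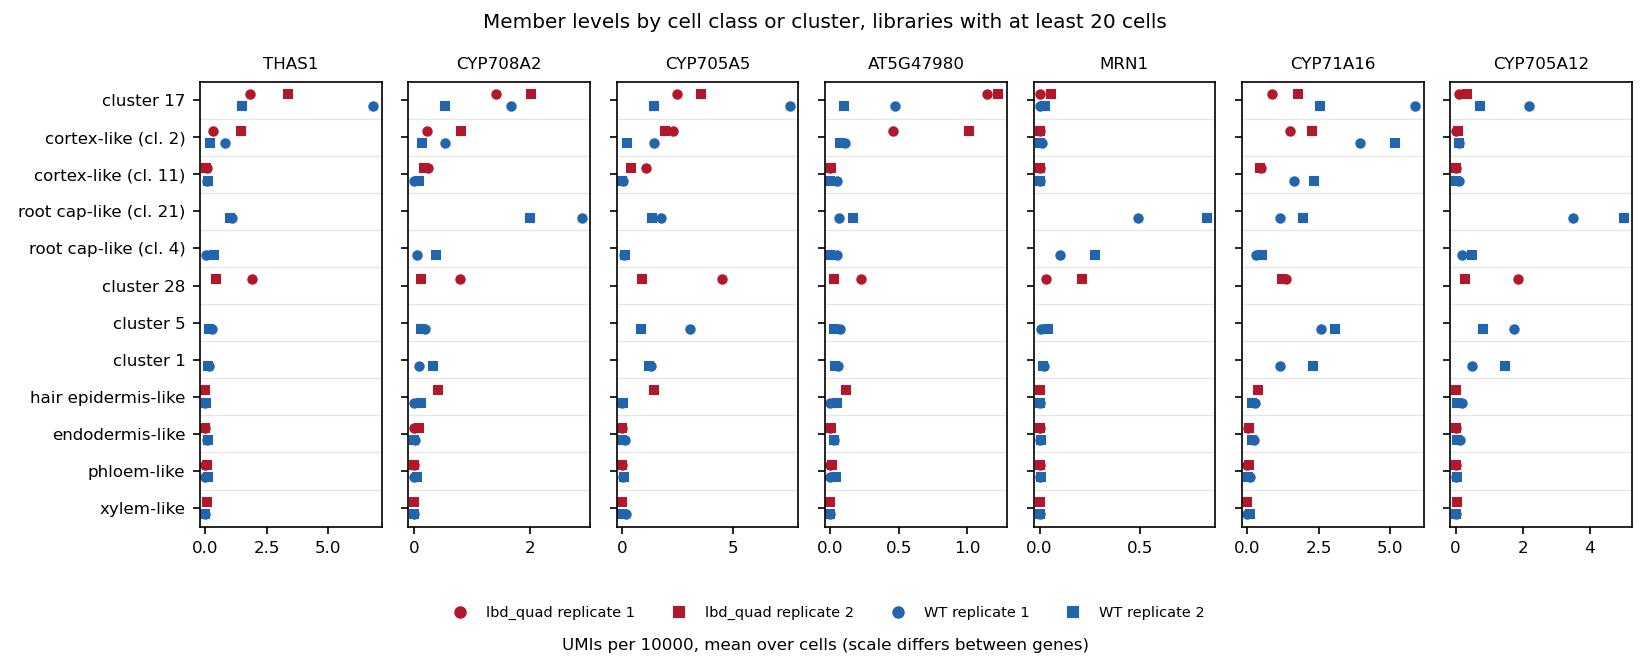
Levels of each gene (UMIs per 10000, mean over cells) in named classes and in clusters that carry members, for libraries with at least 20 cells; lbd_quad points are red and lie above the blue WT points. Cluster 17 is highest for THAS1, CYP705A5 and AT5G47980, root cap-like cluster 21 for CYP708A2, MRN1 and CYP705A12, and cortex-like cluster 2 for CYP71A16, by the mean over libraries.

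In cortex-like cells CYP71A16 was lower, and the acyltransferase gene AT5G47980 was higher, in both lbd_quad libraries than in either WT library, and neither difference passed the test. CYP71A16 had 0.868 and 1.11 UMIs per 10000 in lbd_quad and 3.33 and 3.53 in WT, so no lbd_quad library came near a WT library. On the log2 scale the change was -1.70 ± 0.33 SE and missed the threshold (limma, adjusted p = 0.0808, unadjusted p = 0.000414). AT5G47980 had 0.175 and 0.371 in lbd_quad and 0.0910 and 0.0292 in WT (log2 fold change 1.20 ± 0.44 SE, adjusted p = 0.468). CYP705A5 had 1.53 and 0.973 in lbd_quad and 1.08 and 0.0988 in WT (1.45 ± 0.68 SE, adjusted p = 0.648). THAS1 (0.06) and CYP708A2 (0.35) had log2 fold changes near their standard errors of 0.58 and 0.46 or below.

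None of the 5 members tested in cortex-like cells was called by limma, beside 33 of 8780 genes or 0.376%; 2 of 5 had an unadjusted p under 0.05, beside 8.26% of genes, and voom called none. Libraries that did not overlap made up 17.6% of the genes tested there with lbd_quad lower and 19.4% with lbd_quad higher. The class was made up differently: cluster 2 gave 38.2% and 36.4% of its lbd_quad cells and 73.3% and 42.2% of its WT cells, the rest being cluster 11. Within cluster 2, CYP71A16 was lower in lbd_quad at the levels given above, and AT5G47980 was higher, with 0.459 and 1.01 in lbd_quad and 0.106 and 0.0691 in WT. In cluster 11, AT5G47980 was near 0 and overlapped, with 0 and 0.0020 in lbd_quad and 0.0502 and 0 in WT. In cluster 2, gaps between the libraries occurred in 23.1% (lbd_quad lower) and 18.3% (lbd_quad higher) of the genes tested.

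Cluster 11 held the only call of a member. CYP705A5 had 1.06 and 0.420 UMIs per 10000 in its 34 and 279 lbd_quad cells and 0.0611 and 0.0168 in its 63 and 264 WT cells. These levels rest on 10 UMIs in 2 cells and 30 UMIs in 12 cells of lbd_quad. Each WT library had 2 UMIs in 2 cells, under the floor of 3 UMIs. Over summed UMIs the lbd_quad levels were 0.368 and 0.182. CYP705A5 was higher in both lbd_quad libraries, by 2.50 ± 0.55 SE on the log2 scale (adjusted p = 0.0434 by limma), among 49 of 8821 genes called in that cluster, or 0.555%. This fit was added after the cluster levels had been seen, and the call held under 3 of 13 other settings and in none that left out a library (adjusted p from 0.00205 to 1.00). CYP71A16 had 0.486 and 0.457 in lbd_quad and 1.64 and 2.33 in WT there (-1.85 ± 0.42 SE on the log2 scale, adjusted p = 0.0510 by limma). Of the genes tested in cluster 11, 16.9% had both lbd_quad libraries above both WT libraries and 17% had them below.

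In cluster 17 the acyltransferase gene was higher, and the marneral P450s were lower, in both lbd_quad libraries than in either WT library, though none of these differences passed the test. Libraries that did not overlap made up 22.8% of genes there with lbd_quad higher and 15.6% with lbd_quad lower. The fit in cluster 17 was not among the planned fits. AT5G47980 had 1.15 and 1.23 UMIs per 10000 in lbd_quad and 0.472 and 0.0993 in WT (log2 fold change 1.93 ± 0.61 SE, adjusted p = 0.196 by limma). These levels rest on 47 UMIs in 6 cells and 63 UMIs in 24 cells of lbd_quad. In WT they rest on 16 UMIs in 5 cells and 8 UMIs in 7 cells. CYP71A16 had 0.858 and 1.79 in lbd_quad and 5.88 and 2.54 in WT (-1.56 ± 0.56 SE, adjusted p = 0.302 by limma). CYP705A12 had 0.106 and 0.336 in lbd_quad and 2.17 and 0.734 in WT (-2.20 ± 0.62 SE, adjusted p = 0.0952 by limma).

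Other thalianol genes of cluster 17 overlapped between genotypes. CYP708A2 had 1.42 and 2.02 in lbd_quad and 1.67 and 0.539 in WT (0.75 ± 0.57 SE). THAS1 and CYP705A5, whose levels are given above, had log2 fold changes of -0.37 ± 0.57 SE and -0.16 ± 0.58 SE. WT replicate 1 was the highest library for both of them and WT replicate 2 the lowest. None of the 6 members tested in cluster 17 was called by limma, where 49 of 8187 genes or 0.599% were, and 3 of the 6 had an unadjusted p under 0.05, beside 8.35% of genes; voom called none.

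In endodermis-like cells only CYP71A16 was abundant enough to test. It had 0.0108 and 0.0672 UMIs per 10000 in lbd_quad and 0.248 and 0.181 in WT, from 1 and 4 UMIs in lbd_quad and 17 and 34 UMIs in WT. The lbd_quad libraries were below the WT libraries, as in 18.7% of the genes tested there. On the log2 scale the change was -1.20 ± 0.43 SE (adjusted p = 0.345 by limma), where 76 of 8564 genes or 0.887% were called. Without lbd_quad replicate 2 the adjusted p was 0.0252, but lbd_quad is then a single library that rests on 1 UMI, and the spread comes from the WT libraries alone. Cluster 20 gave 26.1% and 21.7% of the endodermis-like cells in lbd_quad and 2.32% and 6.40% in WT. The summed level of the 11 endodermis markers in the class was 167.9 and 93.5 UMIs per 10000 in lbd_quad and 24.7 and 40.3 in WT, and that of the 7 cortex markers was 16.6 and 14.7 in lbd_quad and 22.1 and 29.3 in WT. The part of these in the result was not tested. In cluster 7 alone, CYP71A16 had 0.0147 and 0.0262 in lbd_quad and 0.258 and 0.179 in WT (adjusted p = 0.307 by limma). No member passed the filter in phloem-like cells, where 3 of 8832 genes or 0.034% were called.

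Whether the genotype difference itself varied between cell classes was tested over 9361 genes. CYP71A16 was the member that passed the filter in both cortex-like and endodermis-like cells, and its log2 difference in cortex-like cells minus that in endodermis-like cells was -0.50 ± 0.46 SE (adjusted p = 1.00 by limma). The other members lay under the filter in endodermis-like cells, and all lay under it in phloem-like cells, so their values there depend on the pseudocount and are not read. No member was called in any of the 3 pairs of classes, where 0.032% (cortex-like minus endodermis-like), 0.0855% (cortex-like minus phloem-like) and 0.47% (endodermis-like minus phloem-like) of genes were.

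**Figure D3:**
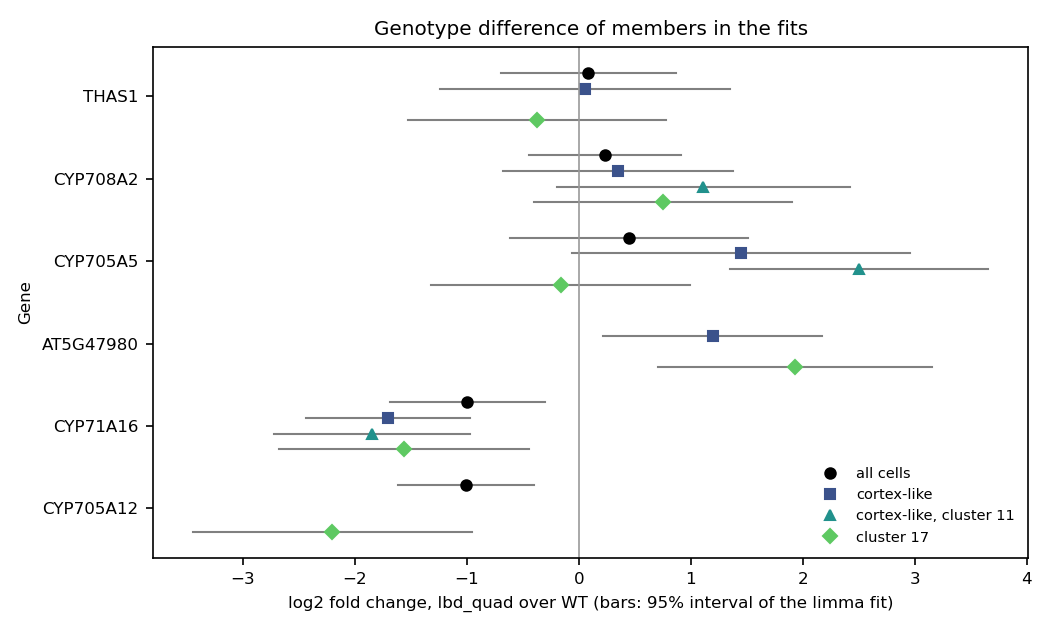
Genotype difference of the 6 members that entered a fit, as log2 fold change of lbd_quad over WT, in all cells, cortex-like cells, cortex-like cluster 11 and cluster 17; bars are 95% intervals. CYP71A16 and CYP705A12 lie left of 0 in each fit shown, AT5G47980 lies right of 0, and the intervals of THAS1 and CYP708A2 include 0.

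Over all clusters pooled, a marneral UMI was found more often in cells with a thalianol UMI than in cells without one, though most such cells held none. After thinning to 1000 UMIs, a marneral UMI was present in 27.5% (95% Wilson interval 16.1 to 42.8) and 25.4% (18.7 to 33.5) of lbd_quad cells with a thalianol UMI, against 2.73% and 3.97% of lbd_quad cells without one. In WT the same shares were 30.1% (23.3 to 38.0) and 41.2% (33.9 to 49.0), against 10.2% and 8.25% of cells without a thalianol UMI. Within the thalianol cluster, CYP705A5 was found in 63.6% and 46.5% of lbd_quad cells with THAS1 (7 of 11 and 20 of 43 cells) and in 46.0% and 15.8% of such WT cells (23 of 50 and 9 of 57). Among cells without THAS1 it was found in 2.75% and 2.91% in lbd_quad and 4.48% and 1.88% in WT. MRN1 was found in none of the 11, 43 and 50 cells with THAS1 in the lbd_quad libraries and WT replicate 1, and in 5 of 57 cells in WT replicate 2. Cells of a library share their free RNA, and the intervals cover counting error only.

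The profiles of the thalianol genes over cell populations were alike. Across 76 points, each a cluster in a library with at least 20 cells, Pearson's r between pairs of thalianol genes on the log2 scale ran from 0.64 (CYP708A2 and AT5G47980) to 0.77 (CYP708A2 and CYP705A5). Each was compared with the mean of the other 3: CYP708A2 ranked 1, THAS1 and CYP705A5 each ranked 2 and AT5G47980 ranked 8 of 9666 genes. The marneral genes were less alike, with r = 0.30 for MRN1 and CYP71A16, 0.64 for MRN1 and CYP705A12 and 0.66 for CYP71A16 and CYP705A12. Against the mean of the other 2, CYP705A12 ranked 19, CYP71A16 ranked 209 and MRN1 ranked 684 of 9667 genes. The means of both clusters correlated at r = 0.76. Points of a library share its depth and its free RNA, and points of a cluster share its definition, so these values are descriptions.

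**Figure D4:**
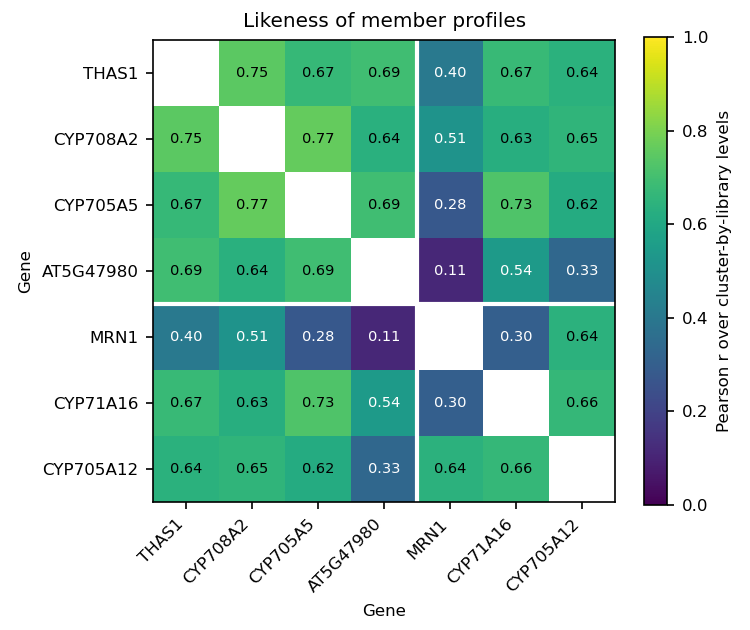
Pearson r between the log2 levels of each pair of members over 76 points (clusters by library with at least 20 cells). The 4 thalianol genes form a block between 0.64 and 0.77, CYP71A16 reaches 0.73 with CYP705A5, and MRN1 is lowest with AT5G47980 at 0.11.

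The genes whose profile was most like the thalianol mean were named by rank. AT3G02620, of the stearoyl-ACP desaturase family, came first at r = 0.82. AT5G47950, an HXXXD-type acyltransferase gene near the cluster, followed at 0.78. Next came PCR2 (0.77), the cellulose synthase-like gene ATCSLB05 (0.76), AT5G19230 (0.76), which encodes a GPI-anchored glycoprotein, and NAXT1 (0.75), a nitrate exporter. PYK10, the beta-glucosidase of root ER bodies, reached 0.74, the fatty acid desaturase gene AT1G06120 also 0.74, and AT3G46700, of the UDP-glycosyltransferase family, and HIR2 each 0.73. Most like the marneral mean were AT1G07175 (0.84), the wall-associated kinase-like gene WAKL4 (0.83), the berberine bridge enzyme-like gene AT5G44380 (0.81), AT5G47950 (0.81) and the thionin-like gene AT1G25275 (0.81).

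AT5G47950 was the only neighbour of the thalianol cluster with such a profile. Of the 11 genes listed as neighbours or lying inside that cluster, 9 were in the matrix and 5 were tested. The median r to the thalianol mean was -0.25 over these 5, beside -0.09 over all genes tested. RABA4C and AT5G47970, which lie between AT5G47950 and AT5G47980, had r = 0.21 and -0.26. AT5G48020, the first gene in the matrix past THAS1, had r = -0.25. AT5G47950 itself had 0.134 and 0.145 UMIs per 10000 in lbd_quad and 0.254 and 0.156 in WT (log2 fold change -0.33 ± 0.25 SE, limma, adjusted p = 0.848). GFA2, also in this list, had 0.147 and 0.120 in lbd_quad and 0.0639 and 0.0821 in WT, and RABA4C had 0.0831 and 0.175 in lbd_quad and 0.169 and 0.205 in WT, with adjusted p of 0.717 and 0.850 by limma.

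Neighbours of the marneral cluster were 13 genes, of which 5 were in the matrix, with a median r of 0.09 to the marneral mean, beside -0.11 over all genes. ATS had 0.50 and AT5G42570 had 0.40, beside an r of 0.50 between MRN1 and the mean of the other 2 marneral genes. None of the 5 neighbours tested at either locus passed the threshold in limma, and none had an unadjusted p under 0.05. The 3 with the smallest p at the marneral locus were ATS (log2 fold change -0.25), XRN2 (0.26) and AT5G42560 (-0.23).

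**Figure D5:**
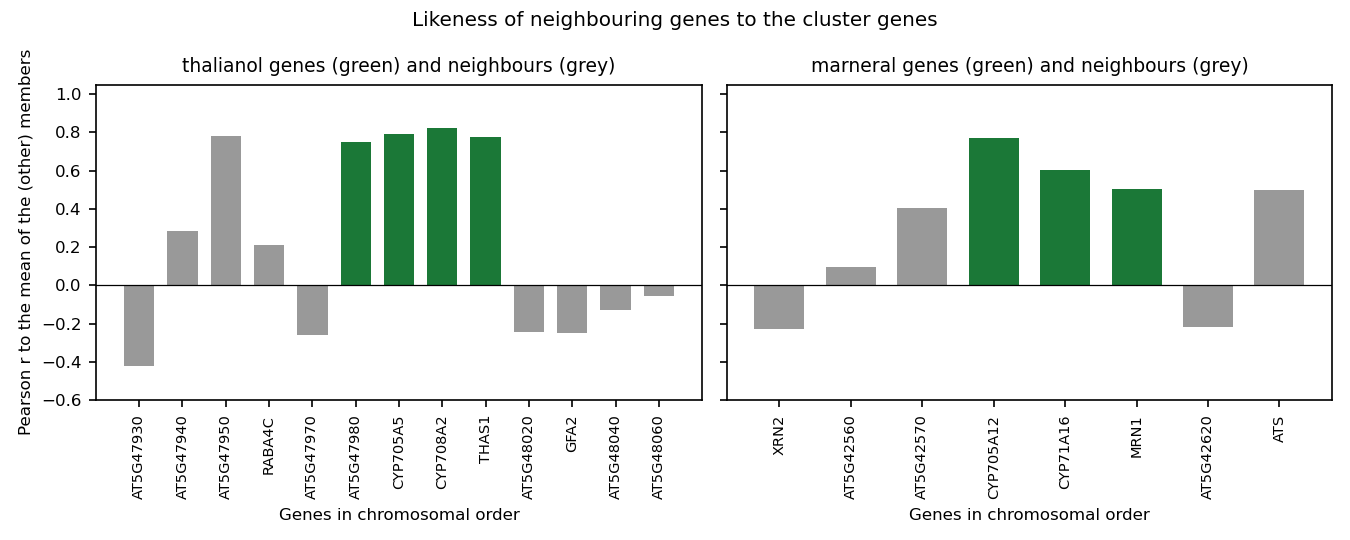
Pearson r to the mean of the thalianol genes (left) and of the marneral genes (right) over 76 points, for members (green, each against the mean of the others) and for neighbouring genes in the matrix (grey), in chromosomal order. On the left only AT5G47950 among the grey bars reaches the height of the members, at 0.78.

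Other genes of thalianol and triterpene metabolism were read from lists of known pathway genes. Beside AT5G47950, the thalianol partners outside the cluster are SDR4 (AT3G29250) and AT1G66800, a dehydrogenase gene and one of the NAD(P)-binding Rossmann-fold family. SDR4 had 0.412 and 0.771 UMIs per 10000 in lbd_quad and 2.27 and 1.38 in WT, both lbd_quad libraries being lower (log2 fold change -1.49 ± 0.37 SE, limma, adjusted p = 0.192). AT1G66800 had 0.101 and 0.216 in lbd_quad and 0.258 and 0.207 in WT (-0.39 ± 0.28 SE, adjusted p = 0.838 by limma). Their profiles had r = 0.70 and 0.68 to the thalianol mean.

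Of 10 other oxidosqualene cyclases, 7 were in the matrix and CAS1, cycloartenol synthase of sterol synthesis, was the only 1 tested. It had 0.362 and 0.389 in lbd_quad and 0.388 and 0.509 in WT (log2 fold change -0.20 ± 0.25 SE, limma, adjusted p = 0.918). BARS1, baruol synthase, lay under the filter with 0.0976 and 0.123 in lbd_quad and 0.0370 and 0.0252 in WT. LAS1, lanosterol synthase, also lay under it, with 0.0181 and 0.0189 in lbd_quad and 0.0802 and 0.0735 in WT. PEN1, LUP1 and LUP2, under the filter too, overlapped between genotypes. CAMS1 did not overlap, but had only 1 and 5 UMIs in lbd_quad and 1 and 7 in WT. Of all genes tested over all cells, 19.1% did not overlap with lbd_quad higher and 17.8% with lbd_quad lower. From the list of 6 genes that flank other root triterpene cyclases, CYP705A2 and scpl1 were tested, with log2 fold changes of -0.11 and 0.40 (limma, adjusted p = 0.956 and 0.799).

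Squalene supply, from the mevalonate pathway to squalene epoxide, had 13 genes, of which 8 were tested. Their median log2 fold change was -0.23, beside 0.01 over all genes, and none passed the threshold in limma or had an unadjusted p under 0.05. HMG1, an HMG-CoA reductase of the mevalonate pathway, had 0.293 and 0.312 in lbd_quad and 0.521 and 0.421 in WT (log2 fold change -0.50 ± 0.25 SE, adjusted p = 0.706 by limma). SQP2, of the squalene epoxidase family, had 0.135 and 0.0375 in lbd_quad and 0.421 and 0.0912 in WT (-0.81 ± 0.47 SE, adjusted p = 0.778 by limma). SQS1, squalene synthase, had 0.826 and 0.674 in lbd_quad and 0.953 and 0.847 in WT (-0.24 ± 0.26 SE, adjusted p = 0.898 by limma).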

How the data were processed

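Root tip protoplasts were sequenced as droplet 3′ libraries with version 2 chemistry, per the labels' protocols; Cell Ranger 7.0.1 and Seurat are named in the submitters' processing notes, and the genome build is not given in the sources used here. The authors deposited a matrix of natural log values, ln(1 + UMIs per 10000), for 13844 cells; 3315 columns match no sample and were not used. UMIs came out whole (100% within 0.01). Because the unit is not counts, limma 3.58.1 (R 4.3.3) was run on log2(mean UMIs per 10000 + 0.1), on all genes with a mean of at least 0.1, with Benjamini-Hochberg adjustment. Cells (scanpy 1.11.5) were clustered on 2000 variable genes per library, 40 components and Leiden resolution 1, without members, listed genes or markers. A class needed 3 markers at 2-fold and in 10% of cells; fits needed 20 cells per library. Barcodes were not filtered further (lowest depth 562 UMIs) and no doublet caller was run. Symbols are from RefSeq (TAIR10.1).

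Members and lists were chosen with earlier results of these data known. Text names the members, the 3 smallest p of each list, the cyclases under the filter and the 10 and 5 genes most like each mean. On simulated data over all cells, 0, 89 and 154 of 200 genes were recovered at log2 changes of 1, 2 and 4; in cortex-like cells, 0, 1 and 167.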

Additional observations from a re-analysis of the deposited data

Results flagged for a closer look

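The lbd_quad libraries lay above the WT libraries for AT5G47980 in some cell populations and below them in another, and that difference was not tested, because the gene did not enter the fit of differences between classes. In cortex-like cells both lbd_quad libraries were higher, at 0.175 and 0.371 UMIs per 10000, against 0.0910 and 0.0292 in the WT libraries. In cluster 17 both lbd_quad libraries were again higher, at 1.15 and 1.23, against 0.472 and 0.0993 in WT. In endodermis-like cells both lbd_quad libraries were lower, at 0 and 0.0032, against 0.0293 and 0.0261 in WT. The endodermis-like values rest on 0 and 1 UMIs in lbd_quad and 2 and 1 UMIs in WT, under the 3 UMIs of the floor.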

How the results depend on the processing

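Of 272 values of single members under other settings, 235 kept their direction and side of the threshold. Over all cells 36 genes passed, against 0 without the filter on low values, 19 with size factors, 1 with summed UMIs, 0 with voom, 23 with thinned cells, 1 with the mean cluster makeup and 150 to 287 with a library left out. In cortex-like cells 33 passed, against 16 with a pseudocount of 0.5, 0 without the filter, with summed UMIs, with voom and with cells of at least 2000 UMIs, 4 with thinned cells and 0 to 1 with a library left out. In cluster 11 49 passed, 1 of them a member, against 31 with a pseudocount of 0.5, 0 without the filter, 12 with summed UMIs, 0 with voom, 13 with cells of at least 2000 UMIs, 27 with thinned cells and 0 with any library left out; none of these called a member, and size factors called 2 members. In cluster 17 size factors and summed UMIs each called 1 member, against 0. A pseudocount of 0.5 called 1 member in the differences between classes (CYP71A16 against phloem-like cells, where it lies under the filter), and 0 to 1 members were called in endodermis-like cells with a library left out.

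The replicate numbers of 2 pairs are not stated to pair the libraries; the differences between replicates correlated at r = 0.51 over 9509 genes. A replicate block gave 473 calls over all cells with 1 member (CYP705A12, adjusted p = 0.0160), 578 with 2 members in cortex-like cells and 181 with 2 members in cluster 11.

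Signs turned for small effects. THAS1 had -0.042 with the mean cluster makeup over all cells and -0.34 to 0.51 with a library left out. In cortex-like cells it had -0.22 with summed UMIs and -0.74 to 0.85 with a library left out, and in cluster 17 -1.43 to 0.68. CYP708A2 had -0.087 to 0.55 over all cells with a library left out. In cortex-like cells it had -0.018 with summed UMIs, -0.12 with thinned cells, -0.0031 at resolution 2 and -0.25 to 0.95 with a library left out. CYP705A5 had -0.30 to 1.20 over all cells with a library left out; in cluster 17 it had 0.021 with voom, 0.37 with cells of at least 2000 UMIs and -1.32 to 1.00 with a library left out. CYP705A12 had 0.19 with the mean cluster makeup. The share of cells with a thalianol UMI differed by -1.002 percentage points, against 0.38 for at least 2 UMIs and -3.10 to 1.10 with a library left out. The summed marneral level in cortex-like cells was 2.26, against 2.79 at resolution 2. The cause was not tested. On simulated data in cortex-like cells, 1 of 200 genes with a log2 change of 2 was recovered.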
